A study of Homo sapiens with 6 samples.

Results

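The genes described here are 9 genes of the MHC class I pathway: the heavy chains HLA-B, HLA-C, HLA-E and HLA-F, the light chain B2M, the peptide transporter subunits TAP1 and TAP2, the loading factor TAPBP (tapasin), and NLRC5, the transcriptional activator of class I genes. Their rule is a list of gene symbols and sets no threshold on a measured value. Each symbol had 1 gene identifier among the 58825 in the data, and all 9 passed the filter on low counts that left 20295 genes for testing.

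RNA-seq was performed on NCI-H460 cells, an established human lung cancer line that the sample labels call a lung adenocarcinoma line. All cells carried a lentiviral short hairpin RNA (shRNA) and, according to the methods, were selected with puromycin to give stable knockdown lines. The 3 control libraries (NC-shRNA) carried a hairpin that the labels describe as directed against GFP, and the 3 knockdown libraries (PRMT5-shRNA) carried a hairpin against PRMT5, the arginine methyltransferase that places symmetric dimethyl marks on histones and splicing proteins. The methods list 3 hairpin designs against PRMT5 and the study calls the samples biological replicates, but which hairpin each library carried, and whether each replicate was a separately infected culture, is not given in the sources used here, so the p-values below measure the spread between these libraries. No cytokine, drug or T cell was added to the cells sequenced, as far as the labels state.

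MHC class I molecules carry peptides from inside the cell to its surface, where CD8 T cells inspect them. Peptides are cut by the proteasome, pumped into the endoplasmic reticulum by the TAP1 and TAP2 transporter, and loaded with the help of tapasin onto a heavy chain that is paired with beta-2 microglobulin, the product of B2M. NLRC5 has no DNA-binding part of its own that reads the class I promoter: it acts through the RFX, CREB/ATF1 and NF-Y factors that sit together on a short promoter module, and in many cells interferon gamma raises the whole set, in part through IRF1 and NLRC5. Tumour cells often escape T cells by lowering these genes.

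The depth was 53531257 to 70518401 estimated counts per library, and levels are given as CPM (the count scaled to the library size after edgeR's TMM method) when 1 gene is compared between libraries and as FPKM (normalized for gene length by the authors) when genes are compared with each other. PRMT5 itself stood at 143, 127 and 128 CPM in NC-shRNA cells and at 45.8, 45.6 and 38.3 CPM in PRMT5-shRNA cells, which was 32.6% of the control level (edgeR's quasi-likelihood test, Benjamini-Hochberg adjusted p = 0.0063). Of the 5 epithelial markers examined, KRT8, KRT18 and KRT19 were abundant (mean FPKM from 36.5 to 151 in NC-shRNA), while EPCAM and CDH1 had mean FPKM values of 0.50 and 0.14 there. KRT8 was the 1 of the 5 with an unadjusted p under 0.05, at 904 ± 28.0 CPM in NC-shRNA and 772 ± 49.7 CPM in PRMT5-shRNA (SD, n = 3, edgeR quasi-likelihood adjusted p = 0.25). Of 12 blood cell markers, CD3D, CD3E, MS4A1 and LCP2 were at 0 in all 6 libraries and PTPRC had a mean FPKM of 0 in NC-shRNA and 0.0067 in PRMT5-shRNA. The summed FPKM of the 12 lay between 6.83 and 8.80 in NC-shRNA and between 6.76 and 7.83 in PRMT5-shRNA, of which CD68 made up mean values of 6.07 and 5.34.

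The promoter stretches of HLA-B, HLA-C and B2M are printed because they show, in the 3 genes that the results below turn on, the elements through which class I transcription is known to be driven. The sequences are from RefSeq on GRCh38.p14, read 5′ to 3′ on the strand of the gene, and cover 180 bases from 220 to 41 bases before the annotated start. They lie at chr6:31357220-31357399 (minus strand) for HLA-B, chr6:31272133-31272312 (minus strand) for HLA-C and chr15:44711297-44711476 (plus strand) for B2M. Capitals mark matches, on either strand, to 4 short motifs.
HLA-B: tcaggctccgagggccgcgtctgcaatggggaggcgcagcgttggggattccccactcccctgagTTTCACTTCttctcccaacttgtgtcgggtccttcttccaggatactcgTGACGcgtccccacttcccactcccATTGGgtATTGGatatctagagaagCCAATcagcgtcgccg
HLA-C: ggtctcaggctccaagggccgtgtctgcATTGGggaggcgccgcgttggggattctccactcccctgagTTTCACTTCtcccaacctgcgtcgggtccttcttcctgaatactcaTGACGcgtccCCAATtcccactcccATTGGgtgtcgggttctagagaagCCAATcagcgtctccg
B2M: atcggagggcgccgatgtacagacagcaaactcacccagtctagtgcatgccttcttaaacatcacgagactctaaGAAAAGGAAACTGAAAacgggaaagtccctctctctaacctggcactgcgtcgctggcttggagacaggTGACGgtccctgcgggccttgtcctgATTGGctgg

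The motifs searched were GAAA repeated after any 2 bases (the core of the interferon-stimulated response element, ISRE), GAA and GAAA with any 2 bases between (a shorter form of it), TGACG (the core of the cyclic AMP response element, bound by CREB and ATF factors) and CCAAT (bound by NF-Y). The 2 ISRE forms can overlap each other. Among 35116 RefSeq promoters of 250 bases, 3.02% held the ISRE core, 6.56% the shorter form, 21.2% the CRE core and 32.0% the CCAAT box. A promoter was in the reference table for 7 of the 9 genes (HLA-B, HLA-C, HLA-F, B2M, TAP1, TAP2 and TAPBP). Of these 7 genes, 5 held the ISRE core, 3 the shorter form, 4 the CRE core and 5 the CCAAT box in their 250 bases. HLA-B and HLA-C each held the shorter ISRE form (155 and 151 bases before the start), the CRE core (106 and 105 bases before it) and several CCAAT boxes. Over 250 bases their promoters were identical at 226 of 254 aligned columns (89.0%), against 79.8% for HLA-B and HLA-F and 47.3% for HLA-B and B2M. A match describes the letters only and no binding was measured here.

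HLA-B was the 1 gene of the 9 whose libraries separated by group, and it was higher in PRMT5-shRNA. The NC-shRNA libraries held 2348, 2677 and 2288 estimated counts of it and those with PRMT5-shRNA held 2654, 3564 and 2600, or 35.0, 38.6 and 36.8 CPM against 48.6, 51.0 and 45.2 CPM. The lowest PRMT5-shRNA library lay above the highest NC-shRNA library. The means were 36.8 ± 1.82 CPM (SD, n = 3) and 48.3 ± 2.89 CPM (SD, n = 3). The log2 fold change was 0.39, with a standard error of 0.078 and a 95% interval from 0.21 to 0.58. This was 131% of the control level, with an interval from 115% to 149%. By edgeR's quasi-likelihood test the unadjusted p was 0.0016 and the Benjamini-Hochberg adjusted p over all genes tested was 0.18, so the gene did not pass the threshold of 0.05. DESeq2, run on the same counts, gave a log2 fold change of 0.38 and an adjusted p of 0.021, which did pass. DESeq2 called 413 genes in all, against 14 by the edgeR test. On simulated counts of this design, 76 of 261 DESeq2 calls were false, against 8 of 165 by the edgeR test. DESeq2 found 87% of the simulated 2-fold changes and the edgeR test 63%. The simulated counts were drawn with edgeR's own dispersion estimates, which can favour the edgeR test. The exact two-sided permutation test gave p = 0.10, the smallest that 3 libraries against 3 allow. In bulk RNA, more cells that express a gene and more of its RNA per cell cannot be told apart.

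HLA-C, the neighbouring classical heavy chain, showed no difference between the groups beyond its spread. The 95% interval of its log2 fold change was wide and overlapped that of HLA-B, so whether HLA-C changed differently from HLA-B is not settled. The estimated count of HLA-C was 2197, 3742 and 1710 in NC-shRNA and 1497, 1630 and 2214 in PRMT5-shRNA, or 32.7, 54.0 and 27.5 CPM against 27.4, 23.3 and 38.5 CPM. The second NC-shRNA library was the highest of the 6 and the third PRMT5-shRNA library the next highest, so the groups overlapped. The log2 fold change was -0.36 (standard error 0.29, 95% interval -1.04 to 0.32, edgeR quasi-likelihood adjusted p = 0.65), an interval that runs from 48.8% to 125% of the control level. Without the second NC-shRNA library the log2 fold change was -0.020 (edgeR quasi-likelihood adjusted p = 0.99). HLA-C was the least repeatable of the 9: its spread within groups on the log2 CPM scale was larger than that of 93.1% of the 11639 genes with a mean of at least 5 CPM.

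**Figure D1:**
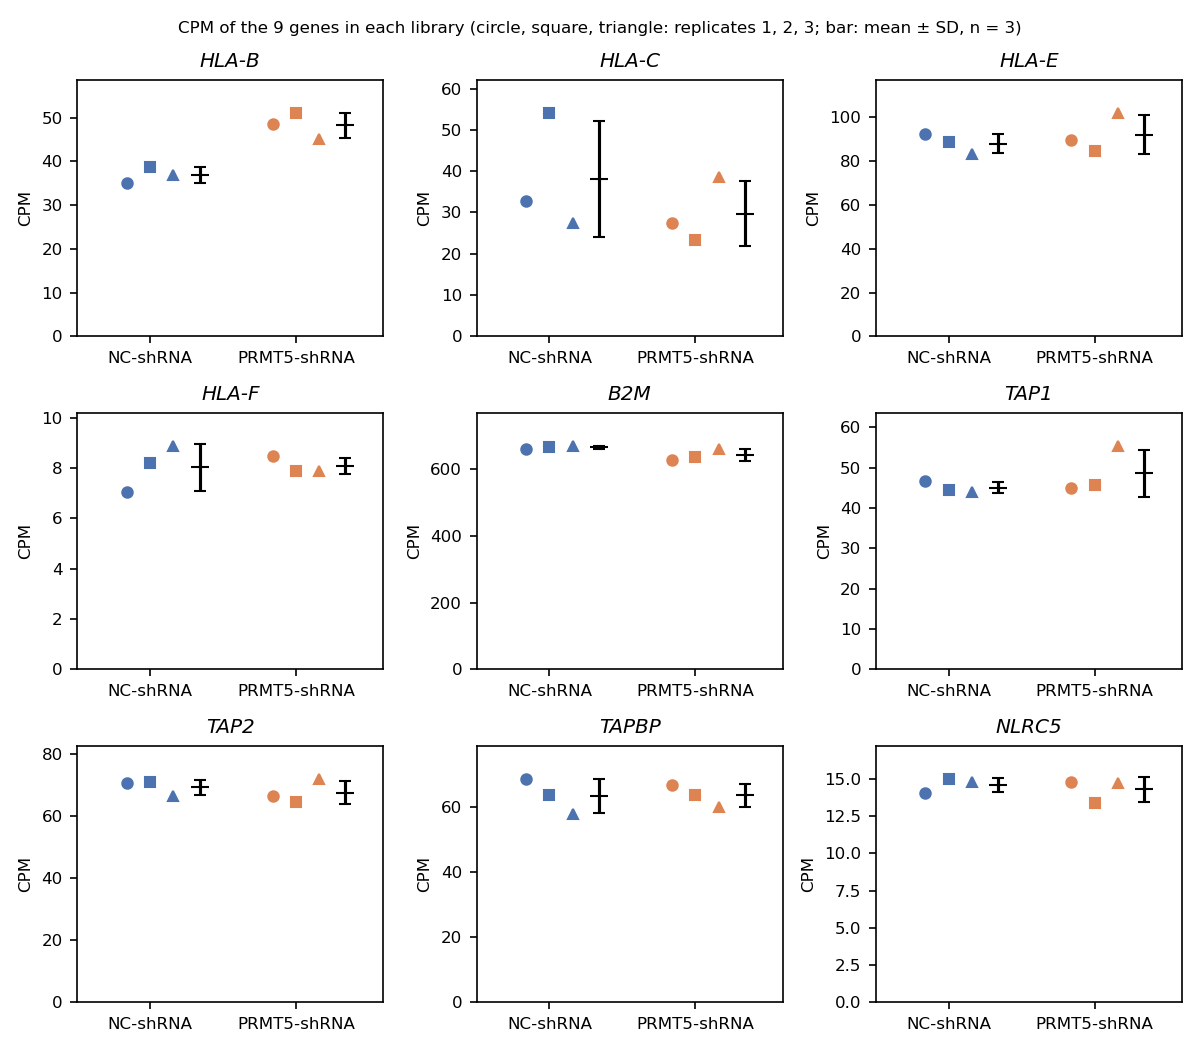
CPM of each of the 9 genes in the 6 libraries, with NC-shRNA in blue, PRMT5-shRNA in orange, 1 marker shape per replicate number and the mean ± SD (n = 3) as a black bar. Only in the HLA-B panel do the groups not overlap (at most 38.6 CPM against at least 45.2 CPM), and HLA-C has the widest spread, with 1 NC-shRNA library at 54.0 CPM.

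The values of HLA-B and HLA-C have to be read with their gene models. In GENCODE release 29 of GRCh38, HLA-B (ENSG00000234745) spans chr6:31269491-31357188 on the minus strand and HLA-C (ENSG00000204525) spans chr6:31268749-31272130 on the same strand, so that the models overlap from 31269491 to 31272130 and the remainder of HLA-C lies outside the HLA-B model. The overlap comes from 1 of the 10 HLA-B transcripts, ENST00000640615, which is listed in the deposited row. Of its 240 exonic bases 35 lie in HLA-C exons (14.6%), while the other transcripts of HLA-B have none there. Of all 50-base windows of the annotated transcripts, 50 bases being the read length in the methods, 2.72% of those of HLA-B and 5.38% of those of HLA-C also occurred in another gene, with 2.48% of those of HLA-B found in HLA-C and 2.87% of those of HLA-C found in HLA-B. How the authors' counting divided such reads is not given in the sources used here, so the split between HLA-B and HLA-C is uncertain. The windows are exact matches between annotated transcripts, and the HLA alleles of these cells were not examined. These shares are therefore not an upper limit on the reads that could be misplaced.

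Added together, which does not depend on that split, HLA-B and HLA-C stood at 67.7, 92.6 and 64.3 CPM in NC-shRNA and at 76.1, 74.3 and 83.7 CPM in PRMT5-shRNA. The groups overlapped, but only through the NC-shRNA library at 92.6 CPM, in which HLA-C alone was at 54.0 CPM. The other NC-shRNA libraries, at 67.7 and 64.3 CPM, lay below every PRMT5-shRNA library. The log2 fold change of the sum was 0.059 (standard error 0.14, 95% interval -0.28 to 0.40, edgeR quasi-likelihood adjusted p = 0.90). The sum was not fitted without that library, so whether the sum differs between the groups is not settled. The sum was chosen after the values of both genes had been seen. Within a library, the ratio of HLA-B to HLA-C in FPKM was 0.878, 0.588 and 1.10 in NC-shRNA and 1.46, 1.80 and 0.965 in PRMT5-shRNA (exact two-sided permutation test, p = 0.20).

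**Figure D2:**
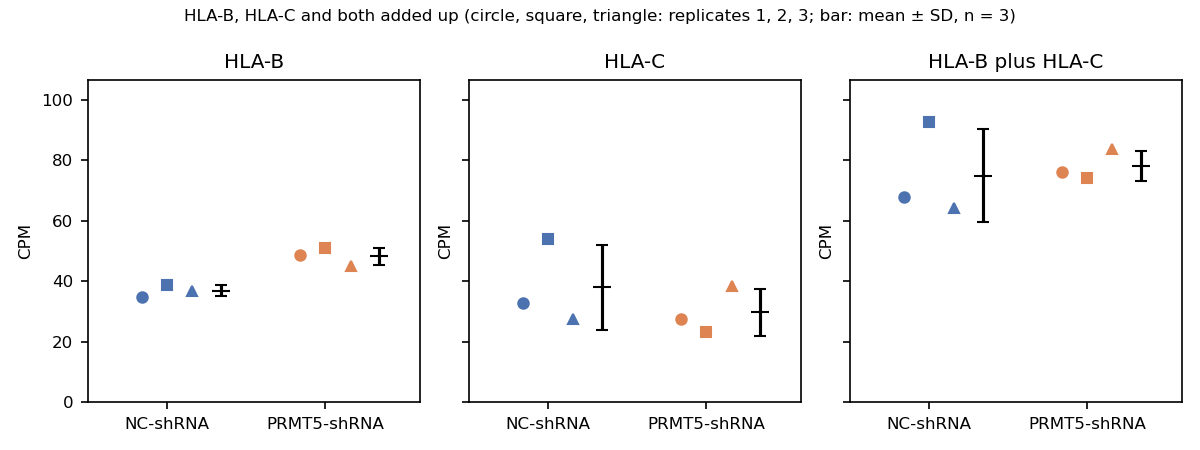
CPM of HLA-B, of HLA-C and of both added up in the 6 libraries on 1 common axis (NC-shRNA in blue, PRMT5-shRNA in orange, 1 marker shape per replicate number, black bars mean ± SD, n = 3). The groups are apart for HLA-B, and the added values overlap, with NC-shRNA from 64.3 to 92.6 CPM and PRMT5-shRNA from 74.3 to 83.7 CPM. Only the NC-shRNA library at 92.6 CPM makes this overlap.

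The non-classical heavy chains showed no difference beyond their spread. HLA-E (ENSG00000204592, chr6:30489467-30494205, plus strand), which displays leader peptides of other class I chains to natural killer cells, was at 92.4, 88.6 and 83.3 CPM in NC-shRNA and at 89.9, 84.7 and 102 CPM in PRMT5-shRNA. The third PRMT5-shRNA library was the highest and the others overlapped, and the log2 fold change was 0.065 (95% interval -0.14 to 0.27). HLA-F (ENSG00000204642, chr6:29722775-29738528, plus strand), a chain found largely inside cells, was at 7.03, 8.18 and 8.85 CPM in NC-shRNA and at 8.47, 7.88 and 7.89 CPM in PRMT5-shRNA. Its log2 fold change was 0.010 (95% interval -0.29 to 0.32), with all PRMT5-shRNA libraries inside the range of the controls. HLA-F shares its locus with HLA-F-AS1 on the opposite strand, which had 1.35 to 2.63 CPM over the 6 libraries. The libraries were made with a stranded kit according to the methods, but whether the counting used strand is not given in the sources used here.

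B2M (ENSG00000166710, chr15:44711487-44718877, plus strand), the light chain that pairs with class I heavy chains, was the most precisely measured of the 9. Its estimated count was 44393, 46232 and 41544 in NC-shRNA and 34234, 44593 and 38041 in PRMT5-shRNA. In CPM this was 661, 667 and 669 against 627, 638 and 661, so that the highest PRMT5-shRNA library just reached the lowest NC-shRNA library. The log2 fold change was -0.052 (standard error 0.046, 95% interval -0.16 to 0.058, edgeR quasi-likelihood adjusted p = 0.68). The interval runs from 89.4% to 104% of the control level. Its within-group spread was smaller than that of all but 1.11% of the 11639 genes with a mean of at least 5 CPM.

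TAP1 and TAP2 form the peptide transporter, and TAPBP bridges it to the empty heavy chain. TAP1 (ENSG00000168394, chr6:32845209-32853978, minus strand) was at 46.6, 44.5 and 43.9 CPM in NC-shRNA and at 44.9, 45.6 and 55.2 CPM in PRMT5-shRNA, where 1 library stood above the other 5. TAP2 (ENSG00000204267, chr6:32821833-32838780, minus strand) was at 70.7, 71 and 66.7 CPM in NC-shRNA and at 66.6, 64.6 and 71.9 CPM in PRMT5-shRNA. TAPBP (ENSG00000231925, chr6:33299694-33314387, minus strand) was at 68.4, 63.6 and 57.8 CPM in NC-shRNA and at 66.8, 63.7 and 60.0 CPM in PRMT5-shRNA. The groups overlapped for each of these 3 genes.

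The log2 fold changes were 0.11 for TAP1 (95% interval -0.12 to 0.34), -0.037 for TAP2 (-0.20 to 0.12) and 0.0054 for TAPBP (-0.19 to 0.20). The third PRMT5-shRNA library was the highest of the 6 for TAP1, TAP2 and HLA-E. Without it, TAP1 had a log2 fold change of 0.0068. The ratio of TAP1 to TAP2 in FPKM was 0.874, 0.832 and 0.875 in NC-shRNA and 0.894, 0.936 and 1.02 in PRMT5-shRNA, without overlap (exact two-sided permutation test, p = 0.10). TAP1 overlaps PSMB9 and PSMB8-AS1 on the opposite strand. Of the 50-base windows of TAP2, 31.3% also occur in AL669918.1, an overlapping gene on the same strand, which was nearly silent in the deposited table at 0 to 38 estimated counts per library.

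NLRC5 (ENSG00000140853, chr16:56989485-57083531, plus strand) had the lowest level per length of the 9 genes and did not differ between the groups beyond its spread. Its estimated count was 942, 1037 and 917 in NC-shRNA and 808, 934 and 846 in PRMT5-shRNA, or 14.0, 14.96 and 14.8 CPM against 14.8, 13.4 and 14.7 CPM. The second PRMT5-shRNA library was the lowest of the 6 and the other PRMT5-shRNA libraries lay inside the control range. The log2 fold change was -0.030 (standard error 0.097, 95% interval -0.26 to 0.20, edgeR quasi-likelihood adjusted p = 0.93), so the interval runs from 83.6% to 115% of the control level. None of its 50-base windows occurred in another gene.

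**Figure D3:**
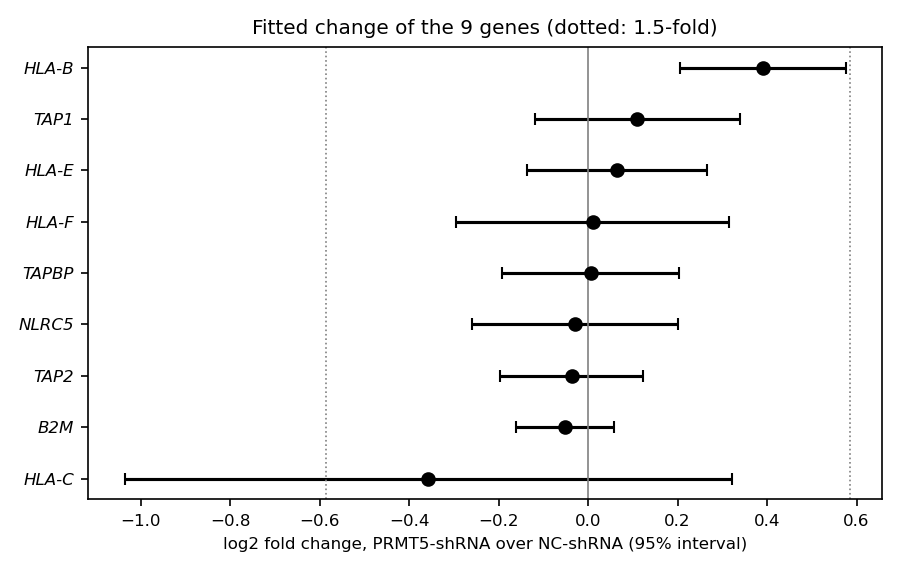
Fitted log2 fold change of the 9 genes (PRMT5-shRNA over NC-shRNA, points) with 95% intervals (bars), the dotted lines marking a 1.5-fold change in either direction. The intervals of 8 genes stay inside the dotted lines, the interval of HLA-C (-1.04 to 0.32) crosses the lower one, and the interval of HLA-B lies above 0.

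By edgeR's quasi-likelihood test, none of the 9 genes passed a Benjamini-Hochberg adjusted p of 0.05, and over all genes tested 0.0690% did (10 higher and 4 lower). DESeq2 called HLA-B alone of the 9. At an unadjusted p under 0.05, 1 of the 9, HLA-B, was higher in PRMT5-shRNA, where 6.54% of all genes were higher and 12.8% passed in either direction. No member combined an unadjusted p under 0.05 with a fold change over 1.5, as 3.82% of all genes did. The groups did not overlap for 1 of the 9 genes, against 21.7% of all genes. The log2 fold change was positive for 5 and negative for 4 of the 9, with a median of 0.0054 beside 0.0075 over all genes tested. Apart from HLA-B and HLA-C, the fold changes lay between -0.052 and 0.11 on the log2 scale, the adjusted p-values between 0.68 and 0.99 and the outer limits of the 95% intervals at -0.29 and 0.34. For these 7 genes a change of 1.5-fold in either direction lay outside the interval.

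On the FPKM scale, which allows levels to be compared between genes, the order over the 6 libraries was B2M at a mean of 92.0, HLA-E at 26.4, HLA-B at 11.9, HLA-C at 11.5, TAPBP at 10.7, TAP2 at 9.20, TAP1 at 8.33, HLA-F at 1.59 and NLRC5 at 0.987. B2M was thus 93.3 times the level of NLRC5. The ranges of B2M, HLA-E, HLA-F and NLRC5 did not overlap those of their neighbours in this order. From HLA-B to TAP1 each gene overlapped the next, so that the order within these 5 is not resolved by the spread between libraries.

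**Figure D4:**
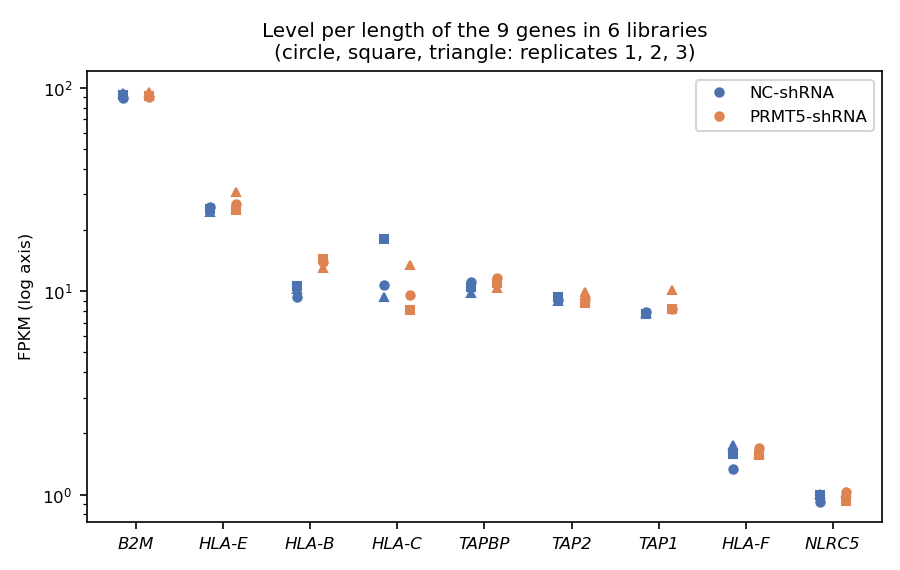
FPKM (log axis) of the 9 genes in the 6 libraries, ordered by their mean, with NC-shRNA in blue and PRMT5-shRNA in orange and 1 marker shape per replicate number. B2M at 89.1 to 95.7 FPKM and NLRC5 at 0.920 to 1.03 FPKM mark the ends of the order, and the groups lie on top of each other for most genes.

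On this scale HLA-B was at 9.37, 10.6 and 10.3 FPKM in NC-shRNA and at 13.9, 14.5 and 13.0 FPKM in PRMT5-shRNA. TAP1 also separated on this scale, with 7.94, 7.76 and 7.82 FPKM against 8.16, 8.22 and 10.1 FPKM, although it overlapped in CPM. The share of all genes whose groups lie apart was computed in CPM only, so the separation of TAP1 in FPKM has no background here. NLRC5 was at 0.92, 1.0 and 1.01 FPKM in NC-shRNA and at 1.03, 0.930 and 1.03 FPKM in PRMT5-shRNA. B2M was 1.89, 1.65 and 2.05 times the summed FPKM of the 4 heavy chains in the controls and 1.73, 1.85 and 1.63 times that sum after knockdown (exact two-sided permutation test, p = 0.40). The light chain thus exceeded these 4 heavy chains together in each library, and the groups overlapped.

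The 9 genes had no common pattern over the libraries. Of their 36 pairs, 22 had a positive Pearson correlation of log2 CPM over the 6 libraries, with a median of 0.075 and a range from -0.81 (HLA-B with B2M) to 0.90 (HLA-E with TAP1). NLRC5 correlated at -0.31 with HLA-B and at 0.59 with HLA-C. The genes most like NLRC5 among 15070 genes with a mean of at least 1 CPM were TAF5L (0.990), ZNF250 (0.986), PCDHGA9 (0.983), VPS50 (0.978) and IL15RA (0.978). The genes most like the mean of the other 8 members, each gene scaled to the same spread, were HIST2H4A (0.982), TEX15 (0.976), MTMR6 (0.97), UBE2V2 (0.959) and SEC24A (0.957). With 6 libraries, 30 genes exceeded a correlation of 0.95 with NLRC5 and 7 with the mean of the others, and all values share the same libraries and depths, so these names are a description.

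The rest of the pathway was examined in 6 lists with 50 genes, of which 43 were tested. None of the 43 passed the adjusted threshold in edgeR's quasi-likelihood test or in limma with voom, and DESeq2 called 1 of the 40 to which it gave an adjusted p, ULBP3 (log2 fold change -0.46, adjusted p = 0.030). At an unadjusted p under 0.05 in the edgeR test, 2 were higher and 6 lower, and for 11 of the 43 the groups were apart. These numbers stand beside the 12.8% and 21.7% of all genes given above.

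Among 11 other class I and class I-like molecules, of which 10 were tested, 4 were lower and 1 was higher at an unadjusted p under 0.05, and the median log2 fold change was -0.22. MICA, MICB, ULBP1, ULBP2 and ULBP3 encode ligands of the NKG2D receptor of natural killer cells, and were not fixed as a list of their own. MICA had 39.6 ± 2.54 CPM in NC-shRNA and 33.7 ± 1.48 CPM in PRMT5-shRNA (SD, n = 3), a log2 fold change of -0.23. MICB had 39.2 ± 0.911 CPM and 32.7 ± 1.51 CPM (SD, n = 3), a log2 fold change of -0.26. ULBP3 had 13.3 ± 0.748 CPM and 9.71 ± 0.143 CPM (SD, n = 3), a log2 fold change of -0.46. ULBP1, a ligand of the same receptor, went the other way, with 6.61 ± 1.53 CPM and 9.70 ± 1.59 CPM (SD, n = 3) and a log2 fold change of 0.55. ULBP2 had 8.60 ± 0.845 CPM and 7.999 ± 0.578 CPM (SD, n = 3), groups that overlapped, and did not pass (log2 fold change -0.10, edgeR quasi-likelihood adjusted p = 0.78). CD1D, which presents lipids, had 1.99 ± 0.159 CPM and 0.998 ± 0.312 CPM (SD, n = 3), a log2 fold change of -1.0. The adjusted p-values of the 5 genes past the unadjusted threshold in edgeR's quasi-likelihood test ran from 0.20 for ULBP3 to 0.33 for ULBP1.

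Of 6 genes of peptide loading and trimming, 2 were lower at an unadjusted p under 0.05, with a median log2 fold change of -0.16 over the list. CALR (calreticulin, a chaperone of the loading complex) had 1166 ± 190.2 CPM in NC-shRNA and 872 ± 44.3 CPM in PRMT5-shRNA (SD, n = 3), a log2 fold change of -0.42 (edgeR quasi-likelihood adjusted p = 0.26). PDIA3, the disulphide isomerase that is bound to tapasin, had 819 ± 51.0 CPM and 719.7 ± 33.8 CPM (SD, n = 3), a log2 fold change of -0.19 (edgeR quasi-likelihood adjusted p = 0.32). In both genes every PRMT5-shRNA library lay below every NC-shRNA library. Both also serve the folding of proteins other than class I chains.

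None of the 5 genes of the immunoproteasome and its activator passed an unadjusted p of 0.05. All 5 log2 fold changes were negative, with a median of -0.14. The activator subunits PSME1 and PSME2, the most expressed of the list per length, had log2 fold changes of -0.091 (edgeR quasi-likelihood adjusted p = 0.61) and -0.16 (adjusted p = 0.55). None of the 9 factors of the class I promoter passed either. Their fold changes were all on the positive side, with a median of 0.090, among them 0.13 for ATF1 (edgeR quasi-likelihood adjusted p = 0.54) and 0.066 for RFX5 (adjusted p = 0.67), the most expressed of the list per length.

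Of 10 genes of interferon gamma signalling, 9 were tested and 1 was higher at an unadjusted p under 0.05. This was STAT2, a signal transducer best known from the type I interferon receptor, with 24.6 ± 3.63 CPM in NC-shRNA and 34.3 ± 5.03 CPM in PRMT5-shRNA (SD, n = 3) and a log2 fold change of 0.48 (edgeR quasi-likelihood adjusted p = 0.29). The median over the list was 0.049. Of 9 genes of class II presentation, 4 were tested and none passed an unadjusted p of 0.05. The summed FPKM of this list ranged between 1.41 and 1.85 in NC-shRNA and between 1.52 and 1.79 in PRMT5-shRNA, most of it from HLA-DMA (mean FPKM 1.35 and 1.40). HLA-DRB1, the next by the mean over all 6 libraries, had mean FPKM values of 0.0733 and 0.103 and too few counts to be tested.

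**Figure D5:**
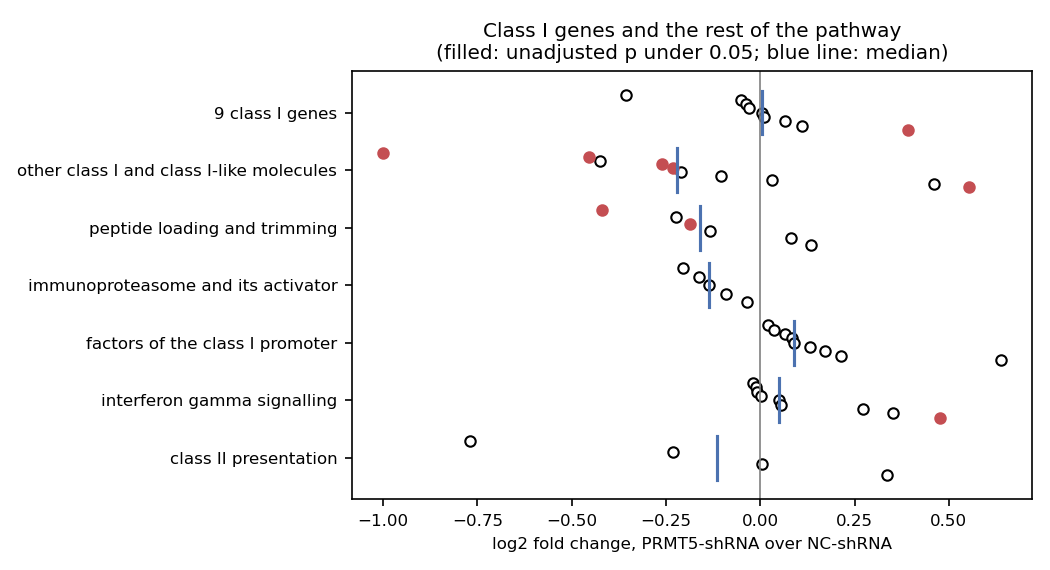
Log2 fold change (PRMT5-shRNA over NC-shRNA) of each tested gene of the 9 class I genes and of the 6 lists of the pathway, with filled points for an unadjusted p under 0.05 and a blue line at the median of each row. The medians run from -0.22 for the other class I and class I-like molecules to 0.090 for the promoter factors, and that of the 9 genes is 0.0054.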

How the data were processed

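RNA-seq of NCI-H460 cells with NC-shRNA (n = 3) and PRMT5-shRNA (n = 3) was analysed, with groups and replicate numbers taken from the sample labels. According to the submitters' processing notes, the authors used cutadapt 1.9, HISAT2 2.0.4 and StringTie 1.3.4d on GRCh38 (the methods name a mouse assembly, while all gene identifiers are human). The authors deposited FPKM values and, for each gene, unnormalized estimated counts, which were whole numbers and were tested as deposited. Low estimated counts gather at multiples of 4, so a count is not read as 1 fragment. Counts were scaled by TMM, filtered with filterByExpr by group and tested with edgeR's quasi-likelihood test (edgeR 4.0.16, R 4.3.3) and Benjamini-Hochberg adjustment over all genes tested. Standard errors were derived from the F statistic. Comparisons of single values used the exact two-sided permutation test.

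Alternatives were other size factors, filters and tests (DESeq2 1.42.0 and limma 3.58.1 with voom), limma on log2(FPKM + 1) and log2(FPKM + 0.1) for genes with a mean FPKM of at least 0.5, counts divided by 4, the replicate number as a block, each library left out in turn, and HLA-B and HLA-C added up, the last chosen after seeing the data. The scripts were tested on simulated counts. No 2 libraries were duplicates (the chi-square per degree of freedom between libraries was 47.7 or more). Positions and shared 50-base windows came from GENCODE release 29 of GRCh38, and promoters from RefSeq. Named were all 9 members, PRMT5, the genes of each list with an unadjusted p under 0.05 or otherwise its 2 most expressed, and the 5 genes most like NLRC5 and most like the other members. The markers were fixed as lists, and some genes counted in the lists are not reported here by name. The members and lists were chosen with earlier results of these data known.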

Additional observations from a re-analysis of the deposited data

How the results depend on the processing

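Across the alternatives HLA-B stayed higher in PRMT5-shRNA, with log2 fold changes from 0.35 to 0.45 and adjusted p-values from 0.021 to 0.38. With DESeq2 it passed the threshold (log2 fold change 0.38, adjusted p = 0.021), 1 of the 9 genes was called and 413 genes were called in all, while the log2 fold change of TAPBP was -0.0031. With limma on log2(FPKM + 1), 152 genes combined an unadjusted p under 0.05 with a fold over 1.5, 2 of the 9 genes did not overlap, and the log2 fold changes of B2M, TAP2 and NLRC5 turned to 0.0077, 0.021 and 0.014. With a pseudocount of 0.1 these values were 437, 2, 0.0078, 0.023 and 0.026. The median over all genes tested moved as well, from 0.0075 in the main fit to 0.039 and 0.050 with pseudocounts of 1 and 0.1. B2M, TAP2 and NLRC5 lay below that median in each of these fits. A filter of 100 counts in 3 libraries left 399 such genes, and with DESeq2's size factors in the edgeR fit, or with no filter, 2 of the 9 did not overlap. With HLA-B and HLA-C added up, neither counted as a member, and 0 of the other 7 passed an unadjusted p under 0.05 by edgeR. None of these 7 passed in the main fit either. The sum had an unadjusted p of 0.69 by edgeR's quasi-likelihood test (DESeq2 was not run on the sum). Counting every gene identifier of a symbol gave nothing else, since each member had 1.

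Leaving out each library in turn gave 8 to 25 called genes, 0 of them members, and 1 to 4 members without overlap (4 without the third PRMT5-shRNA library). Groups are more likely to lie apart by chance when there are fewer libraries. The share over all genes was computed only in CPM, in the main fit with all 6 libraries (21.7%). These counts, and those above for FPKM, other size factors or no filter, therefore have no background here. The log2 fold changes ran from -0.077 to 0.085 for HLA-F, from -0.057 to 0.065 for TAPBP, from -0.057 to 0.016 for NLRC5 and from -0.014 to 0.12 for HLA-E, each with both signs, while HLA-C ran from -0.59 to -0.020 and HLA-B from 0.35 to 0.44. The cause of these shifts was not tested.

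The replicate numbers of the labels did not pair the libraries: the deviations of same-numbered libraries correlated at 0.0012, -0.039 and 0.064 over 10487 genes. With the replicate block in the edgeR fit, 0 genes were called, with 2382 at an unadjusted p under 0.05, HLA-B had a log2 fold change of 0.39 (adjusted p = 0.37) and NLRC5 one of -0.031.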
